A study of Mus musculus with 47 samples.

Results

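Liver mRNA of 10 genes was followed across both sexes, both Pxr genotypes and both treatments. The genes are the growth hormone receptor Ghr, the transcription factor Stat5b, the STAT5 targets Socs2, Cish and Igf1, and 5 genes whose liver expression is known to differ between the sexes, namely Hsd3b5, Elovl3, Cyp2d9, Cyp2a4 and Cux2. They were chosen by name from general knowledge of the growth hormone pathway, with earlier results of these data known, and were found by the gene symbol of each probe. All 10 were on the array, with 21 probes of 56605 gene probes, and all 21 passed the filter on dim probes that 32974 probes of 21873 genes passed. Between 1 and 4 probes measured each gene, and the probe with the highest mean signal stands for the gene unless another probe is named.

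The arrays held liver RNA of 47 C57BL/6J mice aged 6 months, 1 array for each mouse, killed 6 h after lights on (ZT6). Pxr+/+ and Pxr-/- mice were littermates from Pxr+/- parents and carried the deletion, where present, in every cell from birth, and they were separated by sex and genotype from 5 weeks of age. ATB mice drank ampicillin at 1 g/L, neomycin at 1 g/L and vancomycin at 0.5 g/L for 2 weeks, and control mice drank water without them. This gave 8 groups of 6 mice, except 5 Pxr-/- control males, so that 24 females and 23 males were measured. Each group was housed in 2 cages, so mice of 1 group shared cages, and sex, genotype and treatment were the same within a cage. The cage of a mouse is not given, so the tests count cagemates as independent mice.

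Growth hormone is released from the pituitary in pulses in male rodents and more evenly in females. It binds its receptor on hepatocytes, the kinase JAK2 phosphorylates STAT5A and STAT5B, and these enter the nucleus and bind DNA. STAT5 raises Igf1, the main source of circulating insulin-like growth factor, and the inhibitors Socs2 and Cish, which feed back on the receptor. The release pattern sets much of the sex difference of liver mRNA. Cux2, a repressor found in female liver, and Hsd3b5, Elovl3, Cyp2d9 and Cyp2a4, which act on steroids, fatty acids and xenobiotics, are standard readouts of it. PXR, encoded by Nr1i2, is a nuclear receptor that senses xenobiotics and steroids. The comparisons asked how far these readouts differed by sex, by Pxr genotype and by ATB treatment, which depletes gut bacteria.

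All values are on the log2 scale of the normalized median spot brightness, so a difference of 1 is a doubling. Levels of different probes were not set against each other. Each difference was tested with limma on all 47 arrays, its p was adjusted over all 32974 probes by the Benjamini-Hochberg method, and it was called where the false discovery rate was at most 0.05 and the fold change exceeded 1.2. Before normalization the females' arrays were brighter in each state. The group medians of each array's 75th percentile of signal ran from 270 to 304 in females and from 243.5 to 275.25 in males. The normalization kept part of this. Over all genes, the median difference of males less females was -0.20 in Pxr+/+ control, -0.13 in Pxr-/- control, -0.04 in Pxr+/+ ATB and -0.17 in Pxr-/- ATB mice. Of the genes called by sex, 93.2%, 84.9%, 72.5% and 90.2% were lower in males in these 4 states, against 54.5%, 50.9%, 56.7% and 48.5% after quantile normalization of all arrays. With the scanner's processed signal the shares were 46.3%, 44.2%, 53% and 41.5%, with normexp background correction they were 55.1%, 51.2%, 57.9% and 50.8%, and with the authors' own processed values they were 81.8%, 70.8%, 65.9% and 77.3%. The small differences by sex of Ghr, Stat5b and Igf1 are therefore also given less this median, and those of other genes are not. Xist was above background in 0 of 23 males and Eif2s3y in 0 of 24 females, and all 7 hepatocyte markers were above background on every array, with 0 called in any of the 12 comparisons between groups. Eif2s3y was well above background in every male, but its lowest signal among Pxr-/- control males was 8.57, against a group median of 10.19. Its second probe had a lowest signal of 6.53 in that group, against a median of 7.96. The Nr1i2 probe was well above background on every array and its groups overlapped by genotype, with control medians of 11.68 in Pxr+/+ males against 11.37 in Pxr-/- males, and of 12.03 in Pxr+/+ females against 11.71 in Pxr-/- females. Whether it lies in the part removed in Pxr-/- mice was not determined, so it does not check the genotype labels. Cyp2c55, a xenobiotic-inducible cytochrome, did not overlap by genotype in either sex or treatment, and its control medians were 8.21 in Pxr+/+ against 10.47 in Pxr-/- males, and 7.95 in Pxr+/+ against 10.25 in Pxr-/- females.

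The bases before the transcription start are shown for 4 of the 5 genes whose sex difference was called in all 4 states of genotype and treatment, those that the promoter table holds, so that they can be read beside the values that follow. The table (RefSeq, GRCm38.p6) matched 8 of the 10 genes, with 11 start sites, but not Socs2 and Elovl3. Capitals mark every match, on either strand, to 4 motifs: TTCNNNGAA, the spacing that STAT5 prefers, TTCNNNNGAA, the longer spacing known for STAT6, ATCGAT, the core of cut-homeodomain sites such as those of CUX2 and ONECUT factors, and the TATA box TATAAA. Each sequence is the 250 bases up to the start site, written 5′ to 3′ along the gene.
Hsd3b5, chr3:98645535-98645784, minus strand: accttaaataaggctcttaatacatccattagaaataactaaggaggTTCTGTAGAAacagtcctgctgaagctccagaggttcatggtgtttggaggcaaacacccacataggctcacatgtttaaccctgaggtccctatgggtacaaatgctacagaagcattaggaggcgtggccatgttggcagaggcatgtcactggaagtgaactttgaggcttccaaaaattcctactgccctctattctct
Cyp2d9, chr15:82452127-82452376, plus strand: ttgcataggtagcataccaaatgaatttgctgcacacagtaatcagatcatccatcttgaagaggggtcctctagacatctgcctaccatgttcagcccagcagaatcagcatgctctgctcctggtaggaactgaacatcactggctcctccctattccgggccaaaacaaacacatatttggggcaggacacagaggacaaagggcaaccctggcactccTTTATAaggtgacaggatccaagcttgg
Cyp2a4, chr7:26306942-26307191, plus strand: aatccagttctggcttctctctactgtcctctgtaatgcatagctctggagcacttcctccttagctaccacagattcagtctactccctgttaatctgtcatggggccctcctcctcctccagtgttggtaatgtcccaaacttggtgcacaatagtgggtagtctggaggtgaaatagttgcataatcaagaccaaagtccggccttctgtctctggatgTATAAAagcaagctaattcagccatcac
Cux2, chr5:122047826-122048075, minus strand, 1 of its 2 start sites: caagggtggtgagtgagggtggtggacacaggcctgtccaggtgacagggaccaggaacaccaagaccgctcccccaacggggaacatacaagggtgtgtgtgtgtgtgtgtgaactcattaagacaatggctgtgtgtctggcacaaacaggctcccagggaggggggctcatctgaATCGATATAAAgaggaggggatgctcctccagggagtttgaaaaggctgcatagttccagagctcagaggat
Hsd3b5 held TTCNNNNGAA, which began 203 bases before the start site, as 5.85% of 32851 promoters held it. Cyp2d9 and Cyp2a4 each held a TATA box at 28 bases, the one of Cyp2d9 read from the opposite strand, and 12.4% of promoters held one anywhere in the window. In Cux2, ATCGAT began at 72 bases and overlapped a TATA box at 67 bases by 1 base, and ATCGAT was found in 0.728% of promoters. TTCNNNGAA was found at 0 of the 11 start sites of the 8 genes and in 7.02% of all promoters. A match is a run of letters, and these windows leave out distal regions.

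Males and females differed in most of these genes. In Pxr+/+ control mice 9 of the 10 genes were called, 3 higher and 6 lower in males, where 32.1% of all tested genes were called, 2.18% higher and 29.9% lower. In Pxr-/- control mice 5 were called, 3 higher and 2 lower, where 16.1% of all genes were called (2.43% higher, 13.7% lower). In Pxr+/+ ATB mice 7 were called, 3 higher and 4 lower, beside 12.5% of all genes (3.42% higher, 9.03% lower). In Pxr-/- ATB mice 7 were called, again 3 higher and 4 lower, beside 25.8% of all genes (2.53% higher, 23.3% lower). The male-high genes were Hsd3b5, Elovl3 and Cyp2d9 in all 4 states, and the female-high genes called in all 4 states were Cux2 and Cyp2a4. The groups of the 2 sexes did not overlap in any mouse for 5, 4, 5 and 5 of the genes in the same order of states, beside 17%, 7.3%, 6.57% and 10.2% of all genes.

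**Figure D1:**
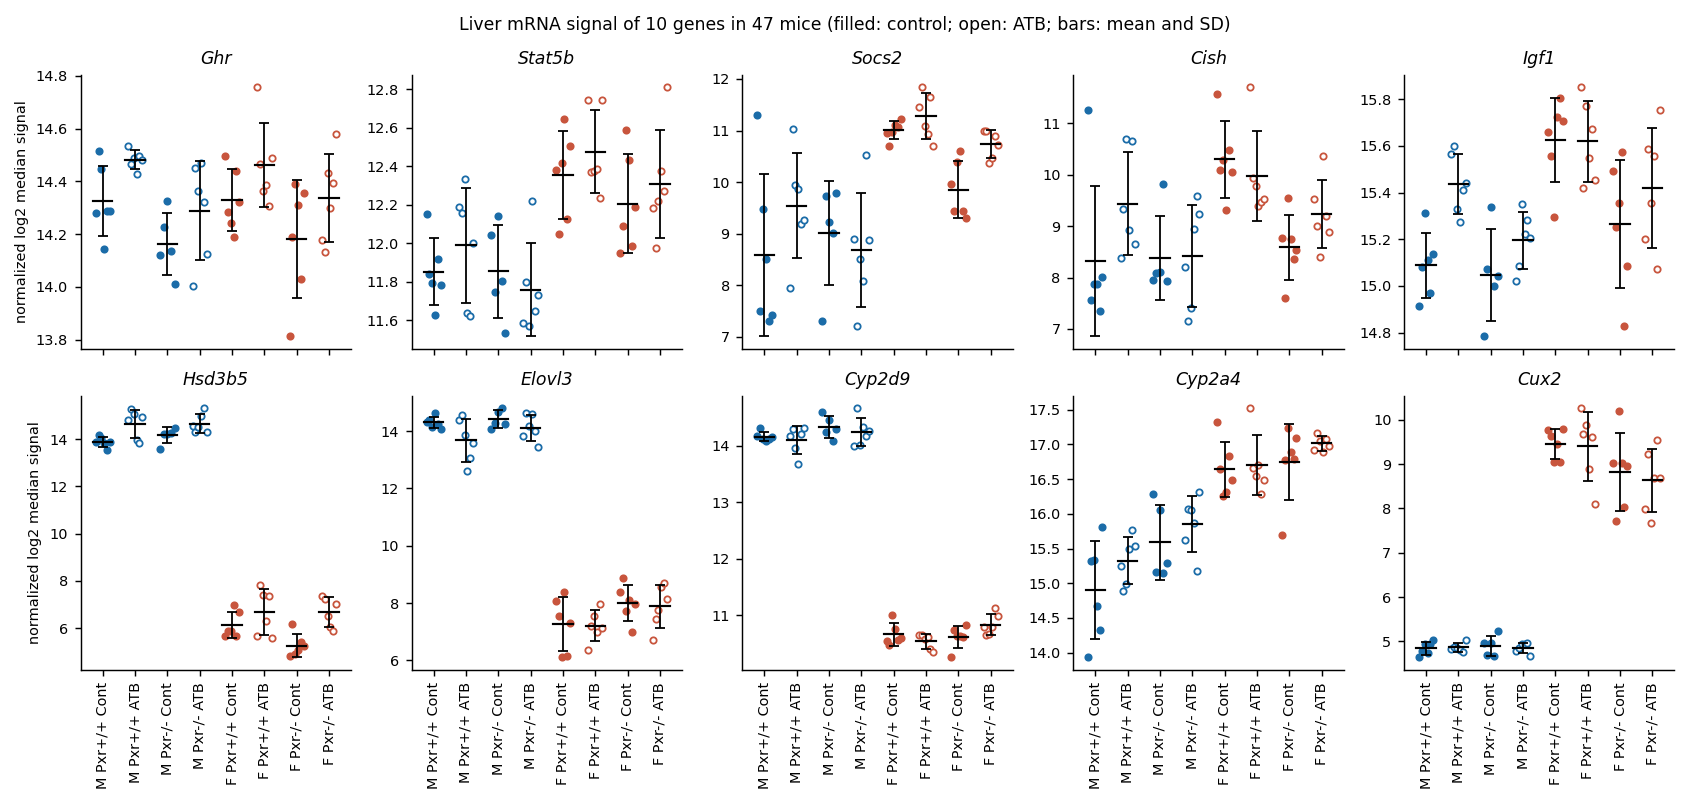
Normalized log2 median signal of each of the 10 genes in each of 47 mice (y axes, 1 scale per gene), by group (x axis; M, male; F, female; Cont, control), with filled circles for control and open circles for ATB mice, blue for males and red for females, and black bars for the group mean and SD. Hsd3b5, Elovl3, Cyp2d9 and Cux2 form separate bands by sex, whereas the sexes overlap in Ghr, Stat5b, Socs2, Cish, Igf1 and Cyp2a4.

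Hsd3b5, a male-specific enzyme of steroid reduction, was the most divided of the 10. Its lowest, median and highest signals were 13.52, 13.87 and 14.15 among Pxr+/+ control males, against 5.66, 5.88 and 6.98 among females of that state. Every male of the study lay above every female, since the 23 males ranged from 13.52 to 15.31 and the 24 females from 4.81 to 7.84. The differences of males less females were 7.75 ± 0.32 (SE) in Pxr+/+ control, 8.88 ± 0.34 in Pxr-/- control, 7.95 ± 0.32 in Pxr+/+ ATB and 7.98 ± 0.32 in Pxr-/- ATB mice, with adjusted p of 1.65e-23, 5.9e-25, 5.81e-24 and 5.64e-24. The Pxr-/- control females had a median of 5.16 and only 4 of these 6 were well above background, so the size of the difference in that state rests partly on unmeasured signals. It ran from 8.03 to 10.18 over the 10 alternative settings there, against 7.34 to 8.64 in Pxr+/+ controls.

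Elovl3, a fatty acid elongase, was as cleanly separated. The Pxr-/- control males read 14.06, 14.25, 14.30, 14.67 and 14.81, and the Pxr-/- control females had a lowest, median and highest value of 6.99, 8.05 and 8.86. Over all mice the lowest male had 12.63 and the highest female 8.86. Males exceeded females by 7.04 ± 0.35 in Pxr+/+ control, 6.41 ± 0.37 in Pxr-/- control, 6.48 ± 0.35 in Pxr+/+ ATB and 6.23 ± 0.35 in Pxr-/- ATB mice. Among males the SD was highest in Pxr+/+ ATB mice, which spread from 12.63 to 14.57 (SD 0.76, n = 6), against 14.07 to 14.64 (SD 0.20, n = 6) in Pxr+/+ control males.

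Cyp2d9, a male-predominant P450 that hydroxylates testosterone, differed by less. The Pxr+/+ control males had a lowest, median and highest signal of 14.08, 14.13 and 14.31, against 10.48, 10.58 and 11.01 for the females of that state. The difference was 3.5 ± 0.11 there, 3.72 ± 0.12 in Pxr-/- control, 3.56 ± 0.11 in Pxr+/+ ATB and 3.41 ± 0.11 in Pxr-/- ATB mice, or 11.3-, 13.1-, 11.8- and 10.6-fold. The lowest of 23 males had 13.68 and the highest of 24 females 11.13. All 47 arrays were well above background for this probe, so the female signal was a measured level.

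Cyp2d9 belongs to a cluster of close relatives on chromosome 15, and of the probes for other Cyp2d genes the one for Cyp2d34 shared the longest run with it. Both probes are shown with that shared run of 17 of 60 bases in capitals, because the pair had the 2 largest sex differences of the family. Positions are in mm9, the build of the array file.
Cyp2d9 probe, chr15:82285582-82285641, plus strand: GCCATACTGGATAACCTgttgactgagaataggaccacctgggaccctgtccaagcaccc
Cyp2d34 probe, chr15:82447966-82448025, minus strand: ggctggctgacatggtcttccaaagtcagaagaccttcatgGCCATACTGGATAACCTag
Cyp2d34 was higher in males by 4.19, 4.36, 4.0 and 3.98 in Pxr+/+ control, Pxr-/- control, Pxr+/+ ATB and Pxr-/- ATB mice. With the other Cyp2d probes on the array the Cyp2d9 probe shared runs of at most 8 bases. Cyp2d11 and Cyp2d12 were also higher in males, by 0.92 and 0.44 in Pxr+/+ control mice, and Cyp2d10 (-0.06), Cyp2d22 (0.09) and Cyp2d40 (0.03) were not called. These runs compare probes with probes and not with the transcripts of relatives. How much each probe reads of its relatives was not tested.

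Cux2, the female-specific homeodomain repressor, was the mirror image of the male-high genes. In Pxr+/+ control females the lowest, median and highest signals were 9.05, 9.54 and 9.78, and in Pxr+/+ control males they were 4.64, 4.86 and 5.02. All 24 females (7.66 to 10.26) lay above all 23 males (4.64 to 5.23). Males were near the floor of the array, with 3, 4, 2 and 2 mice well above background in the Pxr+/+ control, Pxr-/- control, Pxr+/+ ATB and Pxr-/- ATB groups. The differences were -4.61 ± 0.29, -3.91 ± 0.30, -4.53 ± 0.29 and -3.77 ± 0.29 in that order, with adjusted p of at most 1.11e-13. The sizes moved with the background treatment, and over the 10 alternative settings they ran from -5.97, -5.17, -6.16 and -5.05 with the scanner's processed signal to -3.34, -2.82, -3.38 and -2.64 with normexp correction, called in each. The other 2 probes were not well above background in any male, and for the brighter of them females were at least 29.2-, 15.6-, 22.2- and 15.9-fold higher, where the lower bound sets the female mean against the dimmest signal well above background on the male arrays. For the dimmer one the bounds were 17.4-, 10.5-, 16.7- and 9.92-fold.

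Cyp2a4, a female-predominant testosterone hydroxylase, was higher in females by a smaller margin. The Pxr+/+ control males had a lowest, median and highest signal of 13.93, 14.99 and 15.81, and the Pxr+/+ control females had 16.26, 16.57 and 17.33. The difference of males less females was -1.75 ± 0.26 there (adjusted p = 1.65e-06), -1.16 ± 0.27 in Pxr-/- control (0.00235), -1.38 ± 0.26 in Pxr+/+ ATB (0.000137) and -1.16 ± 0.26 in Pxr-/- ATB mice (0.000868). The sexes did not overlap within any state but Pxr-/- control, where 1 female at 15.70 lay under the males at 16.06 and 16.29. The probe lists transcripts of Cyp2a4 and of its close relative Cyp2a5, so its signal may hold both. A separate Cyp2a5 probe, which shared at most 6 bases in a row with it, was called lower in males in Pxr+/+ control (-0.97), Pxr+/+ ATB (-0.72) and Pxr-/- ATB mice (-0.65), and its value in Pxr-/- control mice was -0.62 (adjusted p = 0.0737).

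No sex difference was called for the receptor. Ghr read 14.14 to 14.51 in Pxr+/+ control males, with a median of 14.29, and 14.19 to 14.50 in Pxr+/+ control females, with a median of 14.30. The difference was -0.00 in Pxr+/+ control mice (95% confidence interval -0.19 to 0.19), -0.02 in Pxr-/- control (-0.21 to 0.18), 0.02 in Pxr+/+ ATB (-0.17 to 0.21) and -0.05 in Pxr-/- ATB mice (-0.23 to 0.14), and 0 of its 4 probes were called in any state. This probe lists the short transcript that encodes the soluble binding protein. The probe of the full-length receptor gave 0.05, 0.14, 0.14 and 0.07. With the median of all genes taken off, Ghr was 0.20, 0.11, 0.06 and 0.12 in the same order of states. With the scanner's processed signal it was called higher in males in Pxr+/+ control mice, by 0.27 (adjusted p = 0.0125).

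Stat5b, which carries most of the growth hormone signal in liver, was called higher in females in 3 of the 4 states. In Pxr+/+ control mice the lowest, median and highest signals were 11.63, 11.82 and 12.15 in males and 12.05, 12.40 and 12.65 in females, so the groups overlapped. Males less females gave -0.50 ± 0.14 (adjusted p = 0.00603) in Pxr+/+ control, -0.49 ± 0.14 (0.0167) in Pxr+/+ ATB and -0.55 ± 0.14 (0.00376) in Pxr-/- ATB mice, and the value in Pxr-/- control mice was -0.35 ± 0.15 (0.0999). Less the median of all genes these were -0.30, -0.45, -0.38 and, for Pxr-/- control mice, -0.22. The second probe, far dimmer, was called in Pxr+/+ control (-0.56) and Pxr-/- ATB mice (-0.52). The call in Pxr+/+ control mice depended on the scaling, since quantile normalization gave -0.29 (adjusted p = 0.076), the processed signal -0.20 (0.214) and normexp correction -0.29 (0.0658). In Pxr+/+ ATB mice it was lost without any 1 of 4 mice (females 1 and 6, males 4 and 5), with values from -0.43 to -0.41.

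**Figure D2:**
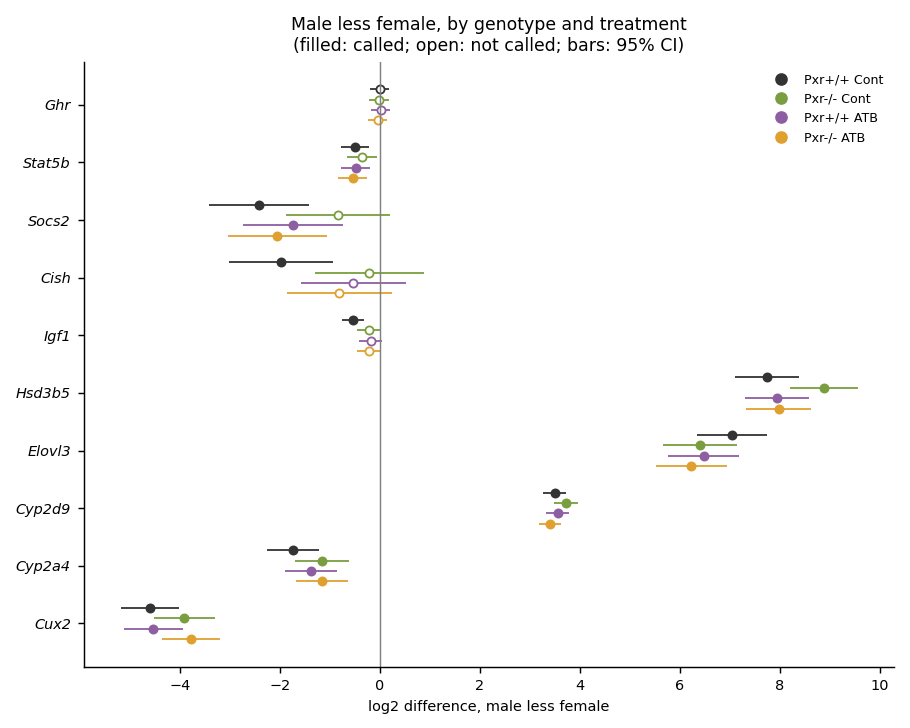
Log2 difference of males less females (x axis) for each of the 10 genes (y axis) in the 4 states of genotype and treatment (colors), with 95% confidence intervals. Filled points were called and open points were not. Hsd3b5, Elovl3 and Cyp2d9 lie far to the right, Cux2 and Cyp2a4 to the left, and Ghr on 0 in all 4 states.

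Of the feedback inhibitors, Socs2 was called higher in females in 3 states and Cish in 1, and both spread widely among males. For Socs2 the Pxr+/+ control females lay between 10.71 and 11.22 (median 11.02, SD 0.18, n = 6), and the Pxr+/+ control males between 7.30 and 11.31 (median 8.01, SD 1.57, n = 6). The 5 Pxr-/- control males read 7.30, 9.02, 9.23, 9.73 and 9.79, against a lowest, median and highest value of 9.30, 9.71 and 10.60 in Pxr-/- control females. Of 23 males, 8 lay above the lowest female. The sex difference was -2.42 ± 0.49 (adjusted p = 0.00025) in Pxr+/+ control, -1.74 ± 0.49 (0.014) in Pxr+/+ ATB and -2.05 ± 0.49 (0.00196) in Pxr-/- ATB mice, and the value in Pxr-/- control mice was -0.84 ± 0.52 (0.274). Without Pxr+/+ ATB male 1 the difference in that state was -1.41 and no longer called (0.0615).

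A dim probe of Socs2, made to another Ensembl transcript, separated the sexes in all 4 states. Its differences were -1.70 ± 0.16, -0.90 ± 0.17, -1.45 ± 0.16 and -1.28 ± 0.16 in Pxr+/+ control, Pxr-/- control, Pxr+/+ ATB and Pxr-/- ATB mice, with no overlap in any state. It was well above background on 45 of 47 arrays. Its SD within the groups of males ran from 0.11 to 0.37, against 1.01 to 1.57 for the main probe. The 23 males lay near the floor of the array on this dim probe, from 4.67 to 5.73. Its differences and its SD in males are therefore limited by dim signal. The second probe of the main transcript gave -2.21, -0.74, -1.64 and -1.80 and followed the main probe in its calls. The faintest probe, at a further Ensembl transcript, was above background in 2 of 23 males, and its values were -0.76, -0.50, -0.70 and -0.56, called in all 4 states.

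Cish, the founding member of the same inhibitor family, showed the sex difference in 1 state. The Pxr+/+ control males had a lowest, median and highest signal of 7.36, 7.87 and 11.27, against 9.31, 10.19 and 11.57 for the females of that state. Males less females gave -1.98 ± 0.52 there (adjusted p = 0.00352), while the values were -0.21 ± 0.55 in Pxr-/- control, -0.53 ± 0.52 in Pxr+/+ ATB and -0.81 ± 0.52 in Pxr-/- ATB mice, with adjusted p of 0.83, 0.61 and 0.232. The overlap in Pxr+/+ controls came from male 1, at 11.27, since the other 5 males reached at most 8.01. The same mouse had the highest Socs2 of its group (11.31) and the lowest Cyp2a4 (13.93). Without it the differences were -2.58 for Cish and -2.98 for Socs2.

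Igf1, the growth factor gene induced by STAT5, was called higher in females in Pxr+/+ control mice. Signals ranged from 14.91 to 15.31 (median 15.10) in Pxr+/+ control males and from 15.30 to 15.80 (median 15.68) in Pxr+/+ control females. The difference was -0.54 ± 0.11 (adjusted p = 0.00039), or -0.33 less the median of all genes, and the processed signal gave -0.23 (0.122). The values were -0.22, -0.18 and -0.23 in Pxr-/- control, Pxr+/+ ATB and Pxr-/- ATB mice, with adjusted p of 0.215, 0.352 and 0.126. Less the median of all genes they were -0.09, -0.14 and -0.05. The other 2 probes, dimmer and made to other transcripts, were not called in any state, and the probe with the wider spread gave -1.33 ± 0.57 in Pxr+/+ controls (0.0633). In Pxr-/- control mice this probe and the other had means of 8.47 and 9.99 in males, against 8.33 and 9.69 in females. In Pxr-/- ATB mice the means were 9.52 and 9.93, against 9.25 and 9.96 in females. In Pxr+/+ ATB mice they were 9.32 and 10.25, against 9.53 and 10.46 in females.

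The arrays were washed in 3 batches that each held both sexes of every state, so the sex differences could also be read within a batch. Of the 28 called sex differences of the 10 genes, 28, 28 and 27 had the same sign within batches 1, 2 and 3. These 28 were picked by the fit over the same mice, so this agreement is a description and not a separate test. Batch 3 held 1 male and 1 female of each state. For Socs2 in Pxr+/+ control mice the values were -1.45, -3.18 and -3.80, and for Cish they were -1.75, -2.28 and -2.04. The exception was Socs2 in Pxr-/- ATB mice in batch 3, with 1 male against 1 female (0.07).

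By Pxr genotype 0 of the 10 genes were called with limma in each of 4 comparisons, and by the main probes the largest differences of Pxr-/- less Pxr+/+ mice were those of Cish and Socs2 in control females. Of all genes 0.187% were called in control males (0.155% higher, 0.032% lower in Pxr-/- mice), 3.2% in control females (0.21% higher, 2.99% lower), 0.946% in ATB males (0.315% higher, 0.631% lower) and 0.206% in ATB females (0.16% higher, 0.0457% lower). An unadjusted p under 0.05 was found for 1, 6, 3 and 2 of the 10 genes in that order, and for 5.2%, 21.4%, 23% and 5.21% of all genes.

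In control females the values of Cish, Socs2 and Igf1 were negative and did not pass the threshold. Cish ran from 7.61 to 9.55 (median 8.64) in Pxr-/- females, against 9.31 to 11.57 (median 10.19) in Pxr+/+ females, so the groups overlapped by 1 mouse of each. The difference was -1.71 ± 0.52 (adjusted p = 0.056, with a range of 0.0381 to 0.158 over the alternative settings). Socs2 was at most 10.60 in Pxr-/- and at least 10.71 in Pxr+/+ control females, with no overlap, and differed by -1.15 ± 0.49 (0.171). The dim Socs2 probe that separated the sexes was called there, at -0.66 ± 0.16 (0.0206). Igf1 differed by -0.36 ± 0.11 (0.0638) and Hsd3b5 by -0.86 ± 0.32 (0.116), whereas Elovl3 was 0.75 ± 0.35 (0.207). The 2 dimmer Igf1 probes had means of 8.33 and 9.69 in Pxr-/- females, against 9.81 and 10.43 in Pxr+/+ females. For Hsd3b5 only 4 of the 6 Pxr-/- females were well above background. The median of all genes was -0.12 in this comparison.

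Markers of other cell types were read beside these values. Macrophage markers (Clec4f, Cd5l, Vsig4, Adgre1, Csf1r and Cd68) were lower in Pxr-/- control females for 4 of 6, with a median of -0.87. Their mean log2 signal ran from 10.59 to 11.18 in Pxr-/- and from 11.50 to 12.17 in Pxr+/+ control females. All 6 were above background on every array. Of sinusoidal endothelial markers 2 of 5 and of neutrophil markers 1 of 3 were lower, and 0 of the stellate, cholangiocyte, T and NK, B and hepatocyte markers were called. Of all genes 2.99% were called lower and 0.21% higher in this comparison. By sex, macrophage markers were lower in males for 6 of 6 in Pxr+/+ control (median -1.08), 4 of 6 in Pxr-/- control, 4 of 6 in Pxr+/+ ATB and 0 of 6 in Pxr-/- ATB mice. In the same order of states, 2, 2, 2 and 2 of 3 T and NK markers were lower in males (medians from -0.996 to -0.77), 4, 0, 0 and 2 of 5 stellate and fibroblast markers, 3, 1, 1 and 0 of 5 sinusoidal endothelial markers, 1, 3, 1 and 1 of 3 neutrophil markers, 0, 0, 1 and 1 of 4 cholangiocyte markers and 0 of 2 B cell markers. The medians of the 3 neutrophil markers were -0.97, -1.19, -0.46 and, in Pxr-/- ATB mice, 0.44. No marker of any list was called higher in males. Of all genes 2.18%, 2.43%, 3.42% and 2.53% were called higher in males in these states, and 29.9%, 13.7%, 9.03% and 23.3% lower. The markers were not read with the other scalings. In whole liver, fewer cells of a type and less RNA per cell cannot be told apart, and the part of these cells in the values of the 10 genes was not tested.

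Among control males the 95% confidence intervals of the dimorphic genes included 0, except that of Cyp2a4. There Hsd3b5 differed by 0.27 ± 0.34 (-0.41 to 0.94), Elovl3 by 0.11 ± 0.37 (-0.63 to 0.85), Cyp2d9 by 0.18 ± 0.12 (-0.06 to 0.42) and Cux2, near background in males, by 0.06. Cyp2a4 was 0.69 ± 0.27 (0.15 to 1.24), the single gene with an unadjusted p under 0.05 there (0.0142, adjusted 0.927). In ATB males it was 0.53 ± 0.26 (adjusted p = 0.209). Cux2 was not called in females, with -0.64 ± 0.29 in control (adjusted p = 0.197) and -0.77 ± 0.29 in ATB mice (0.826), and neither was Cyp2d9, with 0.29 ± 0.11 in ATB females (0.861).

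By ATB treatment 0 of the 10 genes were called with limma in each of 4 comparisons. Of all genes 1.07% were called in Pxr+/+ males (0.901% higher, 0.165% lower after ATB), 0.11% in Pxr-/- males (0.0503% higher, 0.0594% lower), 0.0137% in Pxr+/+ females (0% higher, 0.0137% lower) and 0.0274% in Pxr-/- females (0.0229% higher, 0.00457% lower). Unadjusted p was under 0.05 for 3, 0, 0 and 1 of the 10 genes in that order, and for 18.7%, 7.2%, 10.7% and 11.7% of all genes. The nearest to the threshold was Hsd3b5 in Pxr-/- females. Its lowest, median and highest signals were 4.81, 5.16 and 6.17 in control and 5.87, 6.77 and 7.37 in ATB females, and the difference was 1.41 ± 0.32 (95% confidence interval 0.76 to 2.05), with an adjusted p of 0.0507 by limma. Only 4 of the 6 control females were well above background, and the value ran from 0.83 to 2.11 over the 10 alternative settings. In Pxr+/+ females it was 0.56 ± 0.32 (0.544). Hsd3b5 was also 0.76 ± 0.32 in Pxr+/+ males (0.202) and 0.51 ± 0.34 in Pxr-/- males (0.823). The Pxr+/+ males overlapped, from 13.84 to 15.27 with ATB and from 13.52 to 14.15 in control.

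In Pxr+/+ males the values of the STAT5 targets after ATB were positive and not called. Cish was 1.12 ± 0.52 (adjusted p = 0.245), Socs2 0.95 ± 0.49 (0.295) and Igf1 0.35 ± 0.11 (0.101), and Elovl3 was -0.62 ± 0.35 (0.339). The control males of Cish had a median of 7.87 and the ATB males 9.13, and the highest control male lay above every ATB male. The median of all genes was 0.10 in this comparison. In Pxr+/+ females the same 3 genes were -0.33, 0.27 and -0.00, in Pxr-/- males 0.04, -0.33 and 0.15, and in Pxr-/- females 0.64, 0.88 and 0.16.

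**Figure D3:**
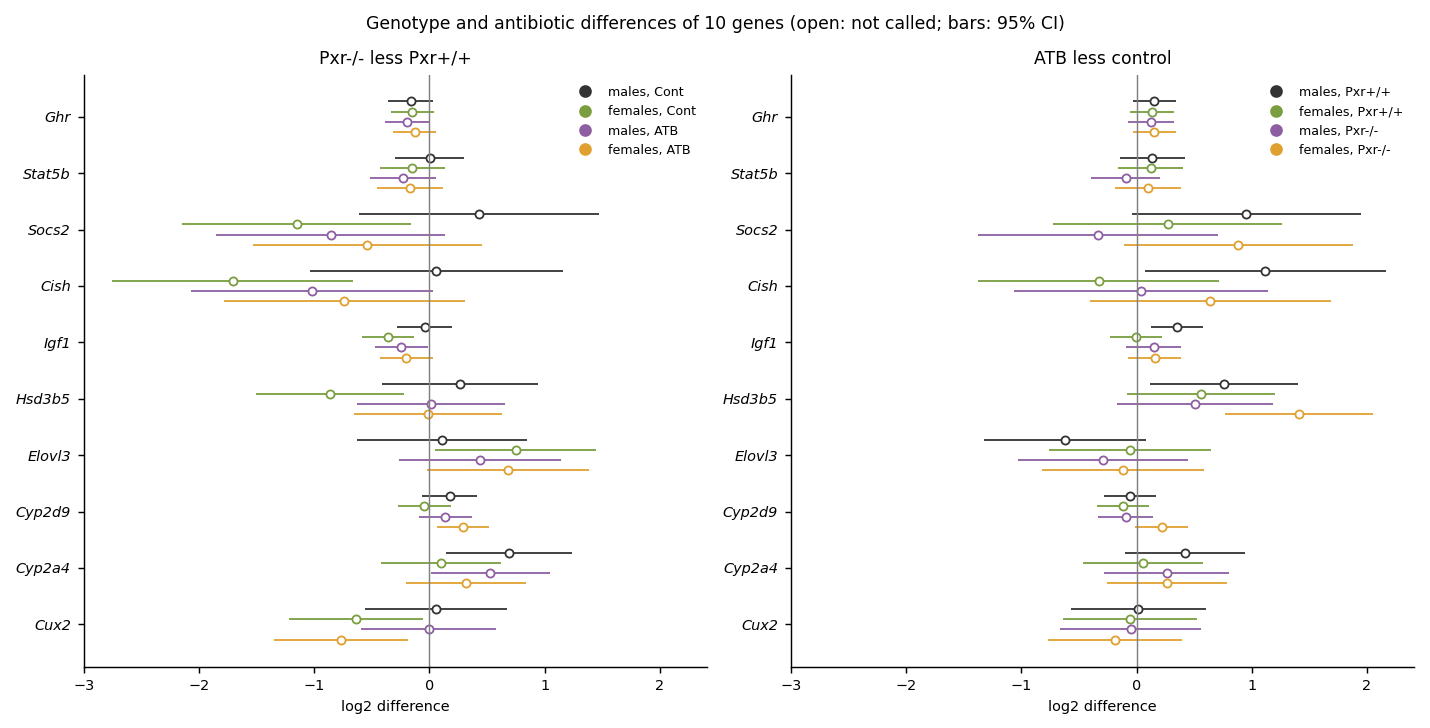
Log2 differences (x axes) of Pxr-/- less Pxr+/+ mice (left) and of ATB less control mice (right) for the 10 genes (y axis) in each sex and state (colors), with 95% confidence intervals. All points are open because 0 were called, and the intervals of Socs2 and Cish are the widest.

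Differences between effects were tested directly. The 6 contrasts (sex by genotype in control and ATB mice, sex by treatment in Pxr+/+ and Pxr-/- mice, treatment by genotype in males and females) called 0 of the 10 genes, with 0.0229%, 0.0457%, 0.0411%, 0.00457%, 0.0183% and 0% of all genes called, and 3, 0, 1, 0, 0 and 1 of the 10 had an unadjusted p under 0.05, beside 4.48%, 8.83%, 13%, 4.88%, 5.03% and 9.45% of all genes. In control mice the sex difference changed with genotype by 1.77 ± 0.75 for Cish (unadjusted p = 0.0236), 1.58 ± 0.71 for Socs2 (0.0322) and 1.13 ± 0.46 for Hsd3b5 (0.0188), each with an adjusted p of 0.972. In Pxr+/+ mice it changed with treatment by 0.35 ± 0.16 for Igf1 (unadjusted p = 0.0324, adjusted 0.359). The sex difference of Cish and Igf1, called in Pxr+/+ controls and not in the other states, was not shown to differ between states.

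The other genes of the pathway were read from a list of 19. In Pxr+/+ control mice 12 of 19 were lower in males and 0 higher, with a median of -0.48, against -0.20 over all genes, of which 29.9% were lower and 2.18% higher. In Pxr-/- control, Pxr+/+ ATB and Pxr-/- ATB mice 7, 6 and 10 were lower and 0 higher, beside 13.7%, 9.03% and 23.3% of all genes lower. Prlr, the prolactin receptor, which also signals through STAT5, was lower in males in all 4 states (-2.80, -2.64, -2.55 and -2.81). Igfals, the subunit that stabilizes circulating IGF1, was too (-1.17, -0.48, -0.71 and -0.68), as was the binding protein Igfbp1 (-1.06, -1.38, -0.95 and -1.2). Irs2, an insulin receptor substrate, was lower in Pxr+/+ control males (-1.36). Jak2 (-0.25), Stat5a (-0.00) and Ptpn11 (-0.13) were not called in Pxr+/+ controls. After quantile normalization 6 of 19 were called in Pxr+/+ controls. By genotype, Igfbp2 was higher in Pxr-/- mice in all 4 comparisons, by 1.15, 0.81, 0.96 and 0.87 in control males, control females, ATB males and ATB females. Igfals (-0.68) and Socs1 (-0.51) were lower in Pxr-/- control females, and ATB called 0 of 19 in each of 4 comparisons.

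Among 17 transcription factors linked to sex-dependent liver genes, 1 was higher and 7 lower in Pxr+/+ control males, 1 and 5 in Pxr-/- control, 1 and 3 in Pxr+/+ ATB and 0 and 5 in Pxr-/- ATB males. Of all genes 2.18%, 2.43%, 3.42% and 2.53% were higher and 29.9%, 13.7%, 9.03% and 23.3% lower in these states. Esr1, the estrogen receptor, was lower in males in all 4 states (-2.08, -1.16, -1.72 and -1.38), and so was Tox (-1.51, -1.81, -1.47 and -1.95). Bcl6, a repressor that competes with STAT5 and is known as male-high, was higher in Pxr+/+ control males by 1.30 (adjusted p = 0.049), and its values were -0.06, 0.15 and 0.97 in the other states. Esr1 was also higher in Pxr-/- than Pxr+/+ control males, by 0.72.

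Lists of genes known as sex-biased were chosen for that direction, so their counts are a description. Of 18 male-biased genes 13, 14, 16 and 16 were higher in males in the 4 states and 0 lower, and of 26 female-biased genes 25 were lower in males in each state and 0 higher. Cyp4a12b, Cyp4a12a, Slco1a1 and Susd4 had the largest male-high differences in Pxr+/+ controls, and Sult2a2 and Sult2a1 the largest female-high ones. Slco1a1 (4.96) and Susd4 (4.08) were measured on all 6 female arrays. Sult2a2 was near the floor in males, with 1 of 6 Pxr+/+ control males above background, and its means were 4.65 in these males and 15.37 in females.

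**Figure D4:**
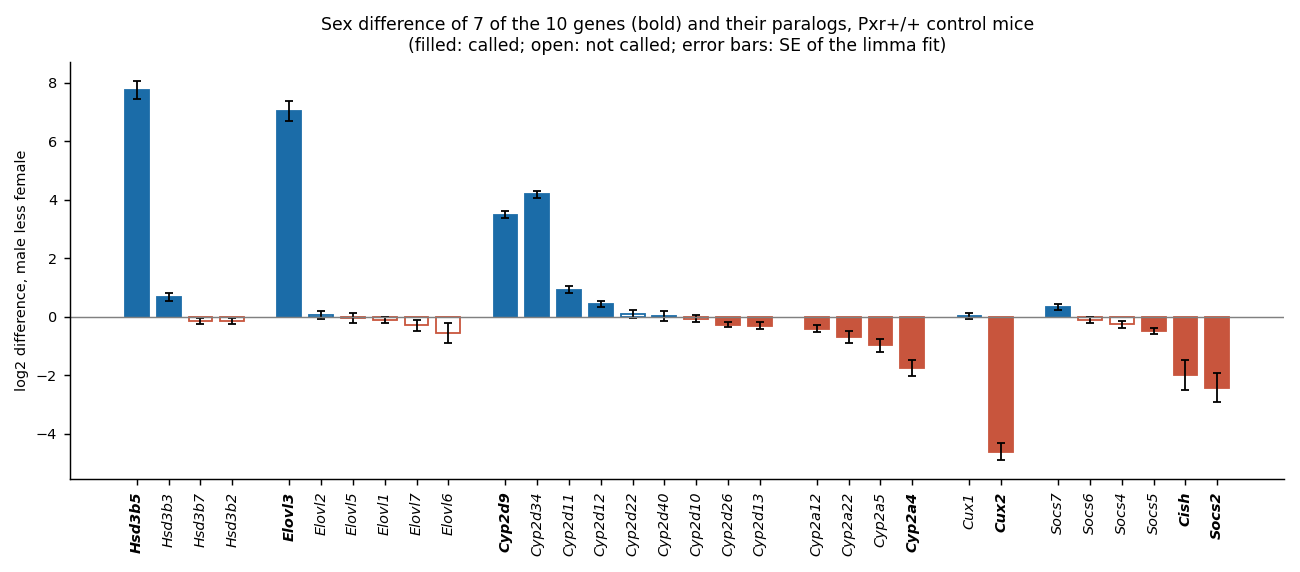
Log2 difference of males less females in Pxr+/+ control mice (y axis) for 7 of the 10 genes (bold) and their paralogs (x axis, by family), with SE from the limma fit. Filled bars were called and open bars were not. Bars are blue where the value is above 0 and red where it is below. Within the Hsd3b, Elovl and Cux families the bold gene stands apart, and in the Cyp2d family Cyp2d34 is larger than Cyp2d9.

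The close relatives of these genes were read beside them. Of 26 paralogs 24 were tested (Hsd3b4 and Igf2 did not pass the filter), and in Pxr+/+ control mice 5 were higher and 6 lower in males, beside 2.18% and 29.9% of all genes. In the other states, Pxr-/- control, Pxr+/+ ATB and Pxr-/- ATB, the counts were 6 and 4, 5 and 2, and 5 and 9, beside 2.43% and 13.7%, 3.42% and 9.03%, and 2.53% and 23.3% of all genes. Hsd3b3 was higher in males by 0.69, 0.97, 1.29 and 1.12, while Hsd3b2 and Hsd3b7 were -0.15 and -0.14 in Pxr+/+ controls and not called. Elovl1, Elovl2, Elovl5, Elovl6 and Elovl7 were not called in Pxr+/+ controls, with values from -0.55 to 0.07. Cux1 was 0.03 there. Among the Socs genes Socs7 was higher in males in all 4 states, by 0.33, 0.41, 0.61 and 0.39, and Socs5 was lower in Pxr+/+ controls (-0.48). By genotype and by ATB 0 of 24 were called in each of 8 comparisons.

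Whether the genes varied together among mice of a group was asked of 9 pairs in each sex, as deviations from the group means. Of these 18 relations 0 passed at an adjusted p of 0.05. Cish and Socs2 had the largest correlation in males, with Pearson's r of 0.62 and Spearman's rho of 0.53 over 23 mice (permutation p of 0.00822 and 0.014, adjusted 0.148 and 0.251). Without the 2 mice farthest from the median of Cish, r was 0.47. Within wash batch 1 it was 0.71 (11 mice) and within batch 2 it was -0.17 (8 mice), so the sign differed between batches. In females r was 0.28 and rho 0.36 over 24 mice (permutation p of 0.22 and 0.092), with 0.83 in batch 1 (12 mice, adjusted permutation p = 0.0396) and 0.33 in batch 2 (8 mice). Hsd3b5 and Elovl3 had r of 0.60 and rho of 0.51 in males (permutation p of 0.0275 and 0.0397, adjusted 0.165 and 0.274), 0.40 without the 2 farthest mice, and 0.04 and 0.86 in batches 1 and 2.

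**Figure D5:**
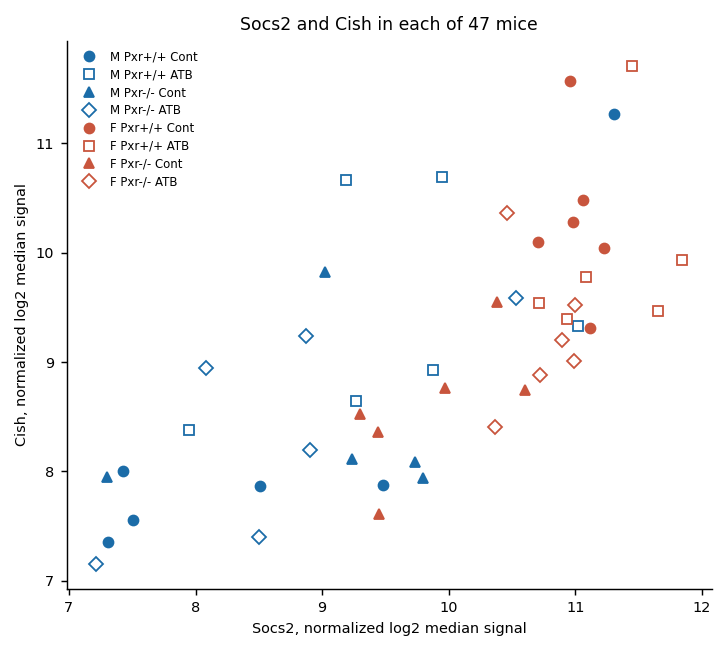
Cish (y axis) against Socs2 (x axis) in each of 47 mice, both as normalized log2 median signal, with blue for males, red for females, filled symbols for control (Cont; circles Pxr+/+, triangles Pxr-/-) and open symbols for ATB mice (squares Pxr+/+, diamonds Pxr-/-). The Pxr+/+ control and Pxr+/+ ATB females sit to the right, at a Socs2 signal of 10.71 or more. Pxr+/+ control male 1 lies among the females at 11.31 and 11.27.

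The genes most like Hsd3b5 and Socs2 were listed as a description, by Pearson's r of deviations from the group means, over arrays that share their normalization and wash. Over 23 males the highest with Hsd3b5 were Slc22a30 (0.84), AK046551 (0.78), Pdilt (0.78) and Fam135a (0.76), with 1 feature that has no symbol. The lowest were Sds (-0.77), Dusp14 (-0.75), Got1 (-0.72) and Ripk4 (-0.72), again with 1 unnamed transcript. Over 47 mice the highest with Socs2, after an unnamed transcript at 0.84, were Onecut1 (0.73), Serpina4-ps1 (0.73), Nrep (0.68) and 9630033C03Rik (0.67), and the lowest were Kcnk5 (-0.61), Rara (-0.59), Ctcfl (-0.59), Catspere2 (-0.57) and Etnk2 (-0.57).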

How the data were processed

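Liver RNA of 47 mice was hybridised to 1-colour Agilent arrays, 1 for each mouse, on 6 slides washed in 3 batches. The authors scanned them and read the spots with Agilent Feature Extraction 10.10.1.1, which gave the deposited median spot intensity (the scanner files also hold a processed intensity). The authors also deposited a table of log2 values that, per the methods, had been filtered, corrected for the washing bath and normalized with CrossNorm; it was used as an alternative and holds 33383 probes.

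From the scanner files, median intensities were taken to log2 without background subtraction, and 422 spot values marked non-uniform were dropped (413 filled with the group mean for normalization only). A probe was kept if, in any group, 5 or more of its arrays read it well above background, the wash batch was removed, and CrossNorm was run with 300 draws. Between 31067 and 34458 probes were well above background on each array, and the number of arrays limits the precision. Differences were tested with limma (version 3.58.1, run under R 4.3.3; files were read with the data.table package, version 1.17.8), with group and wash batch as terms and Benjamini-Hochberg adjustment over all 32974 probes. Correlations used 100000 permutations within groups (Python 3.11.15, numpy 2.4.6, scipy 1.17.1, pandas 2.3.3, matplotlib 3.10.9). The scripts were tested on simulated data.

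A gene is represented by its probe of highest mean signal, and 1535 probes were renamed through their accession. Named are all 10 genes with all their probes, members of the fixed lists that were called or are needed beside them, and the 5 genes of highest and lowest likeness. The genes and lists were chosen with earlier results of these data known. Groups come from the sample titles. Replicates are separate mice, and mice of a group shared cages that the model does not hold. Alternatives were other scalings, filters, blocks and probe summaries, the authors' log2 values, and leaving out each mouse. Results for some members of the lists are not reported here.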

Additional observations from a re-analysis of the deposited data

Results flagged for a closer look

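In 7 of 80 gene and group combinations 1 mouse lay far from the others of its group, judged by its gap to the nearest mouse against the range of the group. By chance about 1 in 20 of the combinations tested would be flagged. For Cish these were Pxr+/+ control male 1 at 11.27 (nearest 8.01), Pxr-/- control male 5 at 9.82 (nearest 8.11) and Pxr+/+ ATB female 1 at 11.71 (nearest 9.94). For Cyp2a4 they were Pxr-/- control female 1 at 15.70 (nearest 16.77) and Pxr+/+ ATB female 1 at 17.52 (nearest 16.70). Hsd3b5 read 13.57 in Pxr-/- control male 2 (nearest 14.22), and Stat5b read 12.22 in Pxr-/- ATB male 4 (nearest 11.80).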

How the results depend on the processing

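Of 198 counts of called members over alternatives that kept every mouse, 6 changed, as did 24 of 220 list counts, 14 of 1944 single differences and 2 of 76 values of correlations. By sex, 3 members were called in Pxr-/- control mice, against 5, when probes had to be above background on all arrays. This filter removes genes that 1 sex lacks and kept 8 members. It kept 14 female-biased genes, and these 14 were called in each of the 4 states. By genotype in control females, where 0 were called, 2 were with the slide as a block, 1 with the replicate block (Cish) and 2 in a fit of only the groups compared. That fit called 2 by treatment in Pxr+/+ males, and the authors' values called 1 in Pxr-/- females (Hsd3b5, 1.38). The replicate numbers did not pair the mice, since correlations of same-numbered mice ran from -0.34 to 0.55 and in no comparison were all over 0.1.

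For growth hormone signalling genes, quantile normalization, the processed signal and normexp correction called 6, 7 and 6 in Pxr+/+ control, 4, 3 and 3 in Pxr-/- control and 4, 3 and 4 in Pxr-/- ATB mice, and in Pxr-/- control mice the authors' values and the fit of only the groups compared called 4 each. For transcription factors these 3 scalings called 5 each in Pxr+/+ controls, quantile and normexp 3 each in Pxr-/- ATB mice, and the fit of only the groups compared 3 in Pxr-/- controls. Of the paralogs, quantile and normexp each called 7 in Pxr+/+ controls, and the fit of only the groups compared 5 in Pxr-/- controls. Over all genes, quantile, processed and normexp called 1527 higher and 1829 lower, 2098 and 1810, and 1222 and 1500 in Pxr+/+ controls. In Pxr-/- controls they called 1318 and 1369, 1770 and 1402, and 1119 and 1173. In Pxr-/- ATB mice they called 1478 and 1390, 1960 and 1392, and 1131 and 1166. In Pxr-/- controls the authors' values called 885 higher and 2146 lower, and the fit of only the groups compared 351 and 1255. Ghr turned from -0.00 to 0.27 with the processed signal in Pxr+/+ controls. Within wash batch 1, 1 correlation passed, against 0. Except where stated, the cause was not tested.

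Leaving out 1 mouse gave 0 to 3 members by genotype in control females (3 without Pxr-/- female 3, 1 without Pxr-/- female 4 or Pxr+/+ female 3) and 0 to 1 by treatment in Pxr-/- females (1 without control female 3). Growth hormone signalling genes ran from 4 to 9 in Pxr-/- control mice (4 without female 4 or male 3) and from 2 to 5 in Pxr+/+ ATB mice, against 6 with all mice (2 without female 6, 3 without male 3, 5 or 6). Transcription factors ran from 3 to 6 in Pxr-/- control (3 without female 1 or male 6) and from 4 to 8 in Pxr-/- ATB mice (8 without female 1). Dim signal limits Cux2 and the dim Socs2 probes in males, and Hsd3b5 in Pxr-/- control females.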
